A study of Mus musculus with 12 samples.

Results

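Dthd1 and Cradd are genes that encode proteins with a death domain, and chromatin accessibility around them was measured in mouse T helper cells with and without a glucocorticoid. A peak was counted to a gene when its centre lay in the span of that gene in the mm10 annotation, or otherwise when the gene had the nearest protein-coding span within 50 kb. That gave 103 of the 222105 peaks of the joint peak set, 29 to Dthd1 and 74 to Cradd. The genes were chosen by the fold changes and calls of their peaks with the glucocorticoid in wild-type cells, so the values of that comparison are given as a description. Position alone does not tell which gene a peak acts on, and accessibility is not a level of transcript or protein.

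The libraries were bulk ATAC-seq, in which a transposase cuts open chromatin and the fragments are counted by position. Naive CD4+ T cells of C57/B6 mice, originally from spleen and dLN, were cultured into Th17Hom cells, a homeostatic type of helper T cell that makes IL-17, and 6000 sorted cells went into each library. The 4 groups, with n = 3 libraries each, were GR cKO cells, in which the glucocorticoid receptor (GR, gene Nr3c1) is conditionally knocked out, treated with dexamethasone (Dex), a synthetic glucocorticoid, for 2 days; cKO control cells; wild-type (WT) cells treated with Dex for 2 days; and WT control cells. The Cre driver of the knockout, the dose of Dex and the age of the mice are not given in the labels. Whether replicate libraries stem from different animals or cultures is not stated either, and p-values then measure only how these libraries spread.

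The death domain is a protein interaction module through which receptors and adaptors assemble signalling complexes, many of them in cell death pathways. Cradd, also called RAIDD, carries a death domain and a caspase recruitment domain, and links PIDD1 to caspase-2 in the complex called the PIDDosome. Dthd1 is named for its death domain, and its role in T cells is not well described. GR is a ligand-activated transcription factor that binds DNA and recruits coregulators, and glucocorticoids are known for limiting T cell responses and for driving apoptosis of thymocytes.

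Dthd1 spans chr5:62811656-62888318 on the plus strand, 76663 bases, and Cradd spans chr10:95174739-95324138 on the minus strand, 149400 bases. Of the Dthd1 peaks, 17 had their centre within the span and 12 outside it. Of the Cradd peaks, 53 had their centre within the span and 21 outside it. The gene table used here gives spans and not exons, so peaks are placed within or outside a span only. The promoter windows of both genes, from 250 bases before to 50 bases after the annotated start, are shown because a peak covers the start of Cradd and none covers that of Dthd1. That of the long non-coding RNA gene Gm29684 is added because the leading Cradd peak lies inside it. The sequences are from RefSeq on GRCm38.p6, the assembly of mm10, 5′ to 3′ on the strand of the gene, and capitals mark matches to the motifs named after them.
Dthd1, chr5:62811406-62811705, plus strand: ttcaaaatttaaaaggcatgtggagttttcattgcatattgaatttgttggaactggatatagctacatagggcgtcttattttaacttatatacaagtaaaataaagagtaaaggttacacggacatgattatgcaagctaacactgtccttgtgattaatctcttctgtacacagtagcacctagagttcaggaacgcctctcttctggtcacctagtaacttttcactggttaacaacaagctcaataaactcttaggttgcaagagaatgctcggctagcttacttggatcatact
Cradd, chr10:95324088-95324387, minus strand: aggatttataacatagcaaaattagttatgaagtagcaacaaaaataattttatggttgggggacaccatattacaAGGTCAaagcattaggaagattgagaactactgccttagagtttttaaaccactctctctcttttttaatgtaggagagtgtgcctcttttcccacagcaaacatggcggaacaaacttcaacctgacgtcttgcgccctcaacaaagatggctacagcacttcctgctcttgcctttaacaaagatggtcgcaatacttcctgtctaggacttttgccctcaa
Gm29684, chr10:95145776-95146075, minus strand: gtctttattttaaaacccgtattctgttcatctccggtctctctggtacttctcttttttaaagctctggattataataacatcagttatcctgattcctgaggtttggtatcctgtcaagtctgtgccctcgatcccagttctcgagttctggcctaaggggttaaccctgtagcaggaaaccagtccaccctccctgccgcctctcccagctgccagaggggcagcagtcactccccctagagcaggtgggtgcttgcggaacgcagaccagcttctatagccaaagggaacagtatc

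The motifs were searched on both strands. The glucocorticoid response element, AGAACA and TGTTCT with 3 bases of any kind between them, was in 0.00913% of 32851 promoter windows of the same length, its half-site TGTTCT, which the element also holds, in 19.0%, the AP-1 motif TGANTCA in 7.81% and the nuclear receptor half-site AGGTCA in 16.3%. Of these, AGGTCA was found once in the Cradd window, and none was found in the Dthd1 or Gm29684 window, which says only that those letters are not in these 300 bases. The GC content was 37.0% for Dthd1, 40.3% for Cradd and 50.7% for Gm29684, against a median of 52.7% over all windows. No peak overlapped the Dthd1 window. The peak nearest to it, chr5:62813006-62813245, lay 1301 bases away and had a mean of 0.571 CPM, the normalised read count used here, which is a peak's count over the TMM-scaled size of its library on the cpm scale of edgeR. The Cradd window lay in a peak with a mean of 17.9 CPM, and the nearest peak to the Gm29684 window was 500 bases away.

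A peak was called when its adjusted p was under 0.05 in edgeR's quasi-likelihood test, with p-values adjusted over all 202587 tested peaks. Of the 103 peaks, 96 passed the filter on low counts, 26 of Dthd1 and 70 of Cradd. The 7 that did not pass had means of 0.335 to 0.472 CPM. In cKO cells, 0 of the 96 peaks were called for Dex, where 0.00296% of all tested peaks were. In WT cells, 10 of 26 Dthd1 peaks and 5 of 70 Cradd peaks were called for Dex, each of them higher with Dex and none lower, where 0.534% of all tested peaks were called, 0.42% higher and 0.114% lower. Among 17063 genes with a tested peak, Dthd1 had the most called peaks in WT cells, ahead of Bcas3 and Dock10 with 8 each, and Cradd was tied with 4 other genes at 5. These WT counts restate the choice of the genes. Without the third WT control library, or without the first WT Dex library, the 15 calls became 7. The calls over all tested peaks fell as well, from 1081 to 603 and to 507. Over all tested peaks the WT calls were 851 higher and 230 lower, and scaling moved that split to 1032 and 725 with total counts, 1262 and 881 with loess offsets and 1070 and 1174 with the covariate described at the end, while the called Dthd1 and Cradd peaks were all higher under each.

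**Figure D1:**
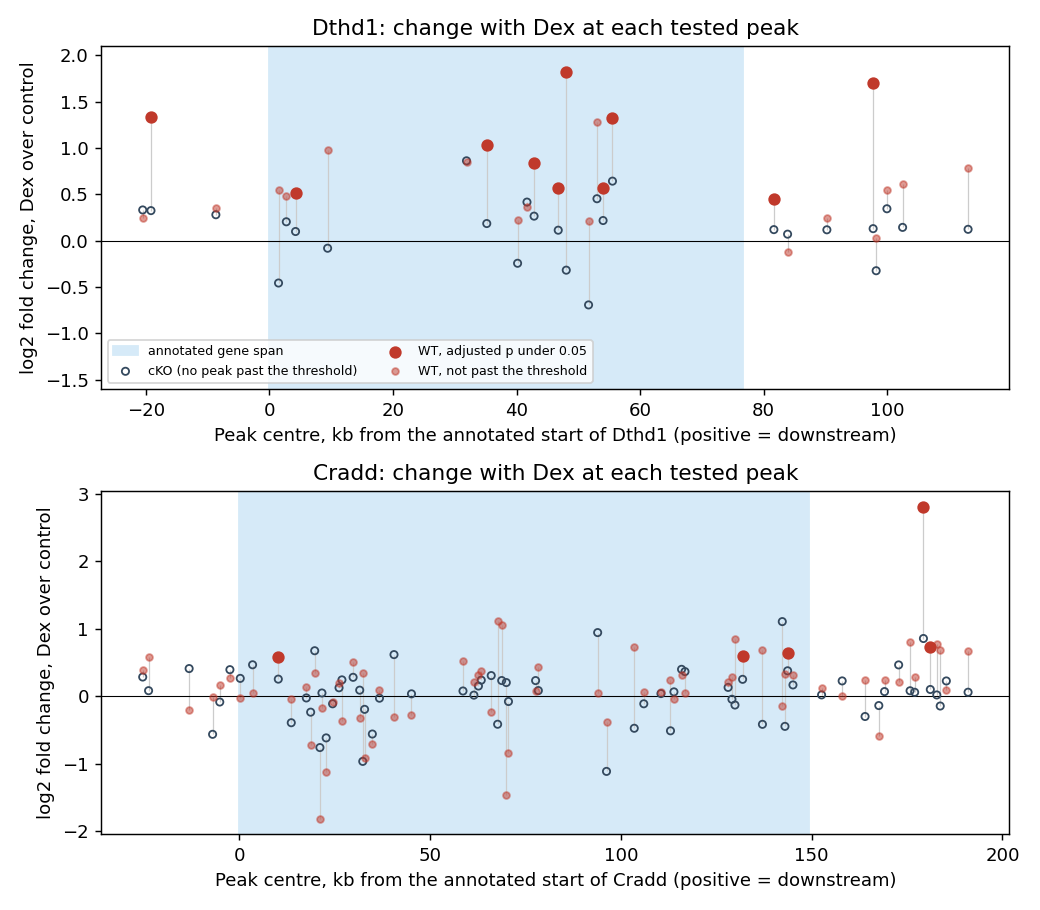
Dex response of each tested peak of Dthd1 (upper panel) and Cradd (lower panel). The x axis is the distance of the peak centre from the annotated gene start in kb, the y axis the log2 fold change of Dex over control, open circles cKO cells and filled circles WT cells, with a grey line joining both values of a peak. The called WT peaks of Dthd1 are spread from 19.2 kb before the start to 97.7 kb after it, and the leading Cradd peak stands alone at 2.81.

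The leading Cradd peak, chr10:95144382-95145200, is 819 bases wide and lies outside the Cradd span, 29948 bases past the end of the gene and 179 kb from its start. It lies within Gm29684 (chr10:95120582-95145825, minus strand), with its nearer edge 625 bases inside the start of that gene. In cKO cells it had 4.76, 5.43 and 5.23 CPM with Dex, against 2.28, 3.81 and 2.32 CPM in control. WT cells had 15.7, 13.2 and 13.2 CPM with Dex, against 1.68, 2.07 and 2.14 CPM in control. In both genotypes every Dex library was above every control library, and the WT libraries with Dex were above all others. The log2 fold change with Dex was 0.85 ± 0.20 in cKO cells (SE, n = 3 per group) and 2.81 ± 0.19 in WT cells, which is 1.81-fold and 6.99-fold. In cKO cells the unadjusted p was 4.8e-05, the 26th smallest of all tested peaks for that comparison, but the adjusted p was 0.361, so the peak was not called. The adjusted p in cKO cells ranged from 0.0633 to 1 over 20 alternative settings, and the log2 value from 0.72 to 1.15.

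A neighbouring peak in Gm29684, chr10:95142290-95143728, 181 kb from the Cradd start, was wider and changed less. In cKO cells it had 8.95, 8.19 and 7.98 CPM with Dex, against 6.78, 8.25 and 8.45 CPM in control. In WT cells it had 10.6, 8.93 and 9.41 CPM with Dex, against 4.88, 6.41 and 6.02 CPM in control. The cKO groups overlapped and the WT groups did not. Its log2 fold change with Dex was 0.10 ± 0.15 in cKO cells (adjusted p = 0.958 in edgeR) and 0.72 ± 0.16 in WT cells. In all, 7 Cradd peaks lay in Gm29684, of which chr10:95136772-95137000 was not tested. Of the 6 tested, 5 had a log2 value above 0 with Dex in cKO cells. In WT cells all 6 did, and 2 were called.

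Within the Cradd span the called peaks changed less. The peak chr10:95180173-95180723, near the end of the gene, had 8.42, 10.3 and 8.87 CPM with Dex, against 7.08, 7.78 and 6.39 CPM in control, in cKO cells. WT cells had 12.6, 11.6 and 10.9 CPM with Dex, against 6.56, 8.67 and 7.18 CPM in control. The Dex libraries were above the control libraries in both genotypes, with log2 values of 0.38 ± 0.15 in cKO cells (adjusted p = 0.838) and 0.64 ± 0.15 in WT cells. The peak chr10:95313153-95314724, 10.2 kb from the start, had 25.7, 27.9 and 25.4 CPM with Dex, against 20.9, 20.9 and 24.5 CPM in control, in cKO cells. In WT cells it had 36.7, 37.3 and 32.8 CPM with Dex, against 19.8, 21.7 and 29.2 CPM in control. Again neither genotype's groups overlapped, and the log2 values were 0.25 ± 0.12 in cKO cells (adjusted p = 0.848) and 0.58 ± 0.12 in WT cells. The peak chr10:95191900-95192530 had log2 values of 0.25 ± 0.13 in cKO cells (adjusted p = 0.859) and 0.59 ± 0.13 in WT cells, and its groups overlapped in cKO cells only.

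The peak over the Cradd start, chr10:95323362-95324460, was not called in any comparison. It had 19.97, 17.1 and 16.5 CPM with Dex, against 14.6, 15.8 and 14.4 CPM in control, in cKO cells. WT cells had 19.4, 19.0 and 19.2 CPM with Dex, against 16.0, 22.1 and 20.1 CPM in control. The groups were apart in cKO cells and overlapped in WT cells, with log2 values for Dex of 0.26 ± 0.12 in cKO cells (adjusted p = 0.848) and −0.03 ± 0.12 in WT cells. The strongest Cradd peak, chr10:95298660-95300750 with a mean of 40.7 CPM, had log2 values of −0.11 ± 0.10 in cKO cells (adjusted p = 0.919) and −0.09 ± 0.10 in WT cells, and its groups overlapped in both.

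**Figure D2:**
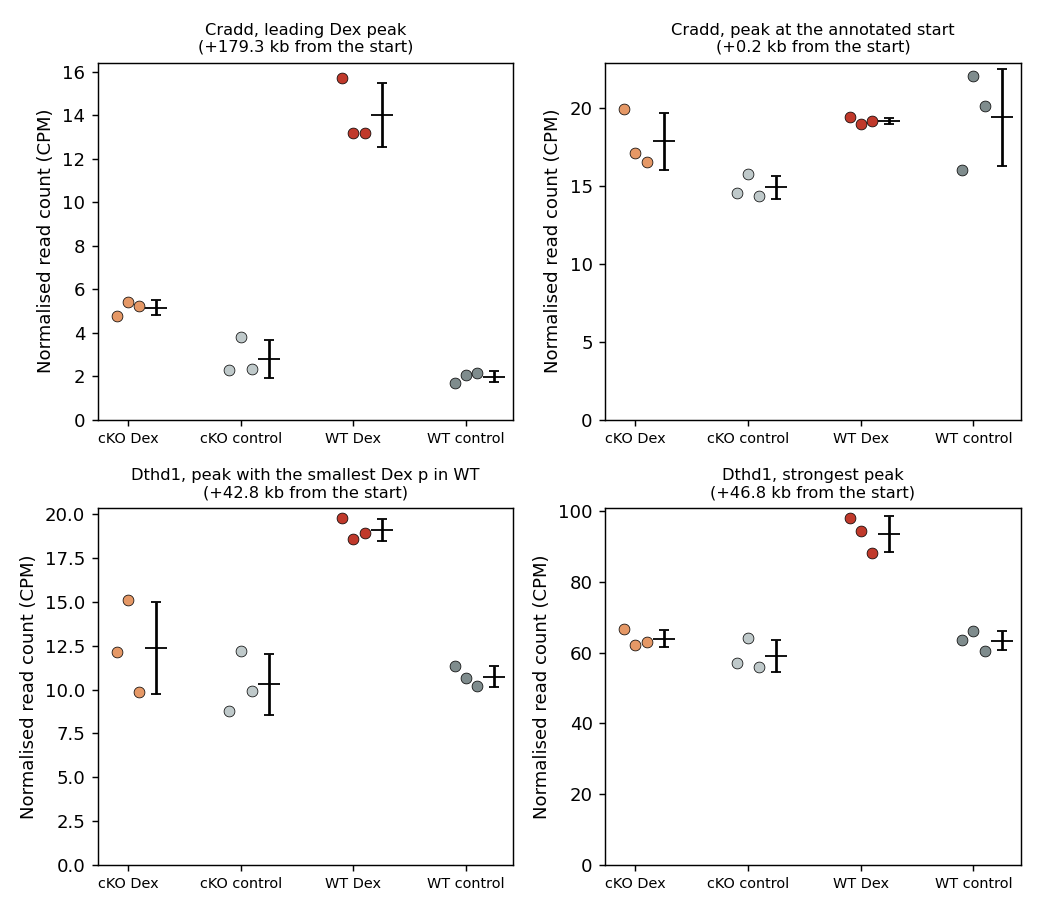
Normalised read count (CPM, y axis from 0) of 4 peaks in each library, by group on the x axis. Points are libraries, and the bars beside them give the mean and SD (n = 3). At the leading Cradd peak the WT Dex libraries sit between 13.2 and 15.7 CPM, above all other libraries, while at the Cradd start the WT groups overlap.

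The Dthd1 peaks that were called in WT cells lay on both sides of the gene and within it. The strongest, chr5:62857898-62858920, lies 46.8 kb past the start and had a mean of 70.0 CPM, or 68.5 CPM per kb of peak width, which is the 99.9 percentile of all tested peaks. It had 66.7, 62.1 and 63.2 CPM with Dex, against 57.2, 64.3 and 55.9 CPM in control, in cKO cells. In WT cells it had 98.2, 94.5 and 88.1 CPM with Dex, against 63.5, 66.0 and 60.6 CPM in control. The cKO groups overlapped and the WT groups did not. The log2 fold change was 0.11 ± 0.09 in cKO cells (adjusted p = 0.910) and 0.56 ± 0.09 in WT cells.

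The Dthd1 peak with the smallest p in WT cells, chr5:62854074-62854908, lies 42.8 kb past the start. It had 12.1, 15.1 and 9.88 CPM with Dex, against 8.76, 12.2 and 9.94 CPM in control, in cKO cells. WT cells had 19.8, 18.6 and 18.9 CPM with Dex, against 11.4, 10.6 and 10.2 CPM in control. The WT Dex libraries stood above all 9 others, and the cKO groups overlapped. Its log2 values were 0.26 ± 0.14 in cKO cells (adjusted p = 0.860) and 0.83 ± 0.14 in WT cells, the WT value being 1.78-fold.

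Among the called Dthd1 peaks the larger fold changes were at weaker peaks, which need a larger change to be called since their SE is wider. Over all tested Dthd1 peaks, the median log2 value in WT cells was 0.54 at a mean of 10 CPM or more and 0.58 below it. The peak 19.2 kb before the start, chr5:62792255-62792700, had 3.42, 3.06 and 2.96 CPM with Dex, against 2.28, 3.03 and 2.19 CPM in control, in cKO cells. In WT cells it had 6.56, 5.64 and 5.10 CPM with Dex, against 1.45, 1.68 and 3.42 CPM in control. The groups overlapped in cKO cells and not in WT cells, and the WT control libraries spread from 1.45 to 3.42 CPM. The log2 values were 0.32 ± 0.24 in cKO cells (adjusted p = 0.900) and 1.34 ± 0.23 in WT cells. The peak chr5:62846484-62847191, 35.2 kb past the start, had 4.39, 5.21 and 4.81 CPM with Dex, against 2.64, 4.80 and 5.23 CPM in control, in cKO cells. WT cells had 8.32, 8.20 and 7.60 CPM with Dex, against 4.42, 3.15 and 4.25 CPM in control. Its groups overlapped in cKO cells and were apart in WT cells, with log2 values of 0.18 ± 0.20 in cKO cells (adjusted p = 0.933) and 1.04 ± 0.19 in WT cells.

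Of the other called Dthd1 peaks, chr5:62815409-62816350 is the called peak nearest to the start, 4.22 kb past it, with log2 values of 0.10 ± 0.10 in cKO cells (adjusted p = 0.932) and 0.52 ± 0.10 in WT cells. The peaks chr5:62865305-62866034 and chr5:62892829-62893800 had log2 values of 0.22 ± 0.12 and 0.12 ± 0.11 in cKO cells (adjusted p = 0.859 and 0.919), and 0.57 ± 0.11 and 0.45 ± 0.11 in WT cells. The peak chr5:62867069-62867313, with a mean of 1.76 CPM, had 0.64 ± 0.33 in cKO cells (adjusted p = 0.859) and 1.32 ± 0.33 in WT cells. Among the Dthd1 peaks, the smallest p for Dex in cKO cells was at chr5:62790715-62791558, 20.5 kb before the start, with 0.33 ± 0.13 in cKO cells (unadjusted p = 0.0166, adjusted p = 0.838) and 0.24 ± 0.13 in WT cells. The last 2 called peaks, chr5:62859564-62859839 and chr5:62909218-62909551, averaged 0.917 and 0.992 CPM and had log2 values of −0.32 ± 0.48 and 0.13 ± 0.42 in cKO cells (adjusted p = 0.956 and 0.983), and 1.81 ± 0.46 and 1.70 ± 0.43 in WT cells. At the threshold itself, the Dthd1 peak just inside was chr5:62859564-62859839 and the one just outside chr5:62924572-62924966 (log2 0.79 ± 0.23), and the corresponding Cradd peaks were chr10:95180173-95180723 and chr10:95193885-95194552 (0.85 ± 0.23).

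**Figure D3:**
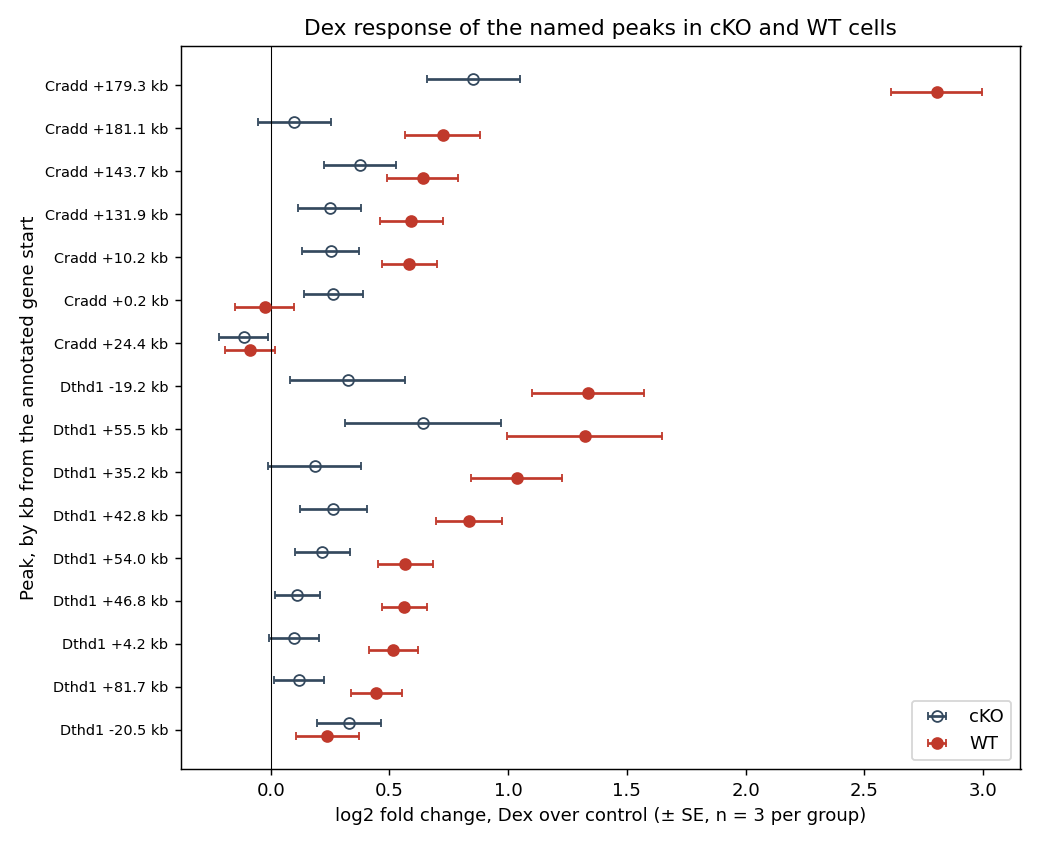
log2 fold change of Dex over control (x axis, ± SE, n = 3 per group) at the 16 named peaks, listed by distance from the annotated gene start, with cKO cells as open circles above WT cells as filled circles. The cKO value lies below the WT value at every called peak, and at 20.5 kb before the Dthd1 start and at the Cradd start it lies above. The called peaks were picked as higher with Dex in WT cells, so lower cKO values there partly follow from that choice. The difference itself was called only at the leading Cradd peak.

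The comparison of Dex with control in cKO cells shares no library with the one that chose the genes. There, 20 of 26 Dthd1 peaks and 45 of 70 Cradd peaks had a log2 value above 0, where 49.5% of all tested peaks did, and the medians were 0.14 for Dthd1, 0.07 for Cradd and −0.0043 for all tested peaks. That share differed by level. Among peaks with a mean of at least 10 CPM, 6 of 6 Dthd1 peaks and 9 of 10 Cradd peaks were above 0, near the 82.1% of all such peaks, and among weaker peaks it was 14 of 20 and 36 of 60, where 44.9% of all such peaks were. An unadjusted p under 0.05 was reached by 6 of the 96 peaks, or 1 for Dthd1 and 5 for Cradd, where 5.84% of all tested peaks reached it. All 6 were higher with Dex, where 2.61% of all tested peaks were higher at that p. The Dex libraries were all above the control libraries at 2 Dthd1 and 7 Cradd peaks, where that held for 5.28% of all tested peaks, and all below at 1 and 2 peaks (5.5%). DESeq2 also called 0, with 5 peaks at an unadjusted p under 0.05 and 54 with no adjusted p, and limma-voom called 0 with 7. Without the third cKO Dex library the count over all peaks was 314 in place of 6, and that of the members was still 0.

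In WT cells, 25 of 26 Dthd1 peaks and 48 of 70 Cradd peaks had a log2 value above 0 with Dex, where 49.8% of all tested peaks did, and the medians were 0.56 for Dthd1, 0.20 for Cradd and −0.0015 for all tested peaks. The Dex libraries were all above the control libraries at 14 peaks of each gene, where that held for 6.96% of all tested peaks, and all below at 0 Dthd1 and 3 Cradd peaks (6.9%). The lowest Cradd value was −1.82 and the lowest Dthd1 value −0.12. The share above 0 differed by level here too. At 10 CPM or more it was 6 of 6 Dthd1 peaks and 7 of 10 Cradd peaks, the latter near the 70.9% of all such peaks. Among weaker peaks it was 19 of 20 and 41 of 60, against 46.9%. Of the calls, 5 Dthd1 and 2 Cradd peaks were at the higher level, where 1.8% of all such peaks were called. At the lower level they were 5 and 3, against 0.355%.

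Among the named WT calls, the leading Cradd peak and the Dthd1 peaks at −19.2, 35.2, 42.8 and 46.8 kb were called in all 20 alternative fits. Others were lost when single libraries were left out, and 1 also with total counts. The weak Dthd1 calls at 62859564 and 62909218 were not followed singly through these fits. The Dthd1 call at 62815409 was lost without the third WT control (0.49) or the first WT Dex library (0.46), and that at 62865305 without the first WT Dex library (0.49). The call at 62867069 was lost without the second (0.94) or the third (1.51) WT control or the first (1.29) or second (1.22) WT Dex library, and with total counts (1.26, adjusted p = 0.0508). That at 62892829 was lost without the first (0.39) or the third (0.45) WT control, the first (0.37) or second (0.41) WT Dex or the third cKO control library (0.44). For Cradd, the call at 95142290 was lost without the first (0.63) or the third (0.75) WT control or the first WT Dex library (0.65), and that at 95180173 without the first (0.56) or the third (0.61) WT control or the first (0.59) or second (0.64) WT Dex library. The call at 95191900 was lost without the second (0.55) or the third (0.62) WT control or the first WT Dex library (0.46), and that at 95313153 without the first (0.48) or second (0.52) WT control library.

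The Dex response was also compared between genotypes as the WT value minus the cKO value, a difference that contains the WT comparison that chose the genes. The leading Cradd peak alone was called, with a difference of 1.95 ± 0.28 on the log2 scale, where 0.0276% of all tested peaks were called. It was called in 19 of 19 alternative fits. At the strongest Dthd1 peak the difference was 0.45 ± 0.13 and was not called, though it was called with total counts (0.45), with loess offsets (0.43) and with the share of counts in strong peaks as a covariate (0.45). An unadjusted p under 0.05 was reached by 9 Dthd1 and 6 Cradd peaks, where 5.65% of all tested peaks reached it.

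In control cells, cKO was compared with WT, a comparison that shares the WT control libraries with the choice of the genes. None of the 96 peaks was called by edgeR, where 0.0104% of all tested peaks were, and limma-voom also called 0. DESeq2 called 0 as well, but gave no adjusted p for 87 of the 96. An unadjusted p under 0.05 was reached by 8 Cradd and 0 Dthd1 peaks in edgeR (7.69% of all tested peaks), by 7 in DESeq2 and by 8 in limma-voom. The smallest p was at the Cradd start, where the cKO control libraries with 14.4 to 15.8 CPM were all below the WT control libraries with 16.0 to 22.1 CPM. Its log2 difference was −0.39 ± 0.12 (adjusted p = 0.439). At the leading Cradd peak and at its neighbour in Gm29684 the cKO control libraries were all above the WT ones, with log2 differences of 0.51 ± 0.22 (adjusted p = 0.598) and 0.42 ± 0.16 (adjusted p = 0.529).

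In Dex-treated cells, which share the WT Dex libraries with the choice of the genes, 3 peaks were lower in cKO than in WT, where 0.17% of all tested peaks were called and 0.13% were called lower. They were the leading Cradd peak, with a log2 difference of −1.45 ± 0.17 (adjusted p = 4e-08), the strongest Dthd1 peak with −0.55 ± 0.09 (adjusted p = 0.000469) and the Dthd1 peak at 42.8 kb with −0.62 ± 0.14 (adjusted p = 0.0209). The Cradd call held in the 19 of 20 alternatives that gave it an adjusted p, and that of the strongest Dthd1 peak in 20 of 20. DESeq2 gave no adjusted p for the leading Cradd peak or for the Dthd1 peak at 42.8 kb. The call at 42.8 kb held in 14 of 19, and was lost with the covariate (adjusted p = 0.125) and without the first (0.206) or second (0.094) WT Dex library or the first (0.179) or the third (0.153) cKO Dex library. Without the third WT Dex library, 5 of the 101 Dthd1 and Cradd peaks tested in that fit were called, and 454 in place of 345 over all tested peaks. The 3 calls and their adjusted p are from the main fit, which used no pairing, though same-numbered libraries of these 2 groups deviated together. With the replicate number as a block in the fit of all 12 libraries, 9 peaks were called, 7 of Dthd1 and 2 of Cradd, all lower in cKO. The calls over all tested peaks rose with the block too, from 345 to 1017, of which 255 were higher and 762 lower. An unadjusted p under 0.05 was reached by 20 of the 96, where 8.35% of all tested peaks reached it. Over all tested peaks 81 were higher and 264 lower, which became 504 and 390 with total counts, 544 and 463 with loess offsets and 1222 and 575 with the covariate.

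**Figure D4:**
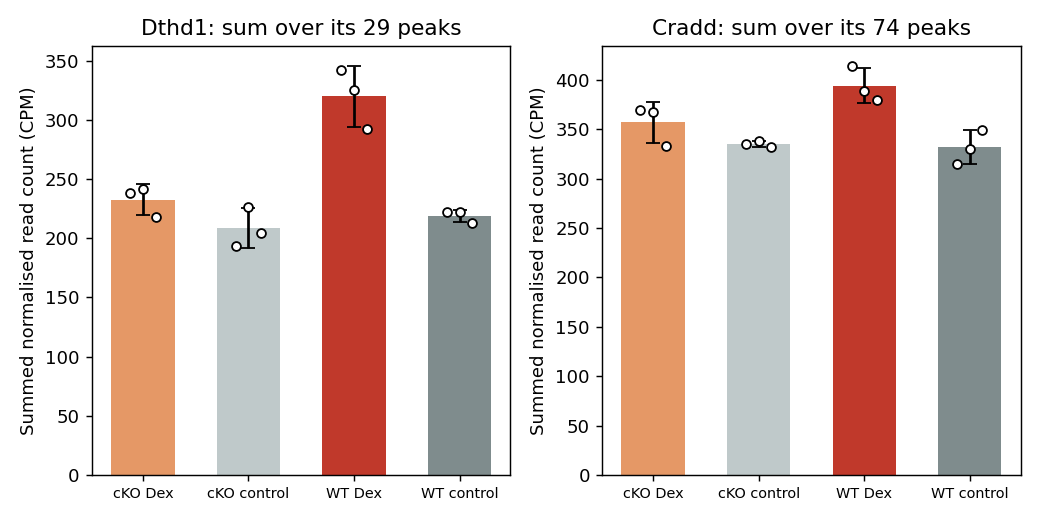
Normalised read counts summed over all peaks of Dthd1 (left) and Cradd (right), in CPM from 0 on the y axis and by group on the x axis. Bars are means, error bars SD and points libraries (n = 3). The WT Dex libraries are above all others for both genes.

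Summed over its 29 peaks, Dthd1 had 238, 242 and 218 CPM with Dex, against 194, 227 and 204 CPM in control, in cKO cells. In WT cells it had 342, 325 and 292 CPM with Dex, against 222, 222 and 213 CPM in control. The WT Dex libraries stood above all others, and the cKO groups overlapped. The ratio of the means was 1.12 in cKO cells and 1.46 in WT cells, and 1.17 and 1.28 over the 19 peaks not called in WT cells. Cradd summed over 74 peaks to 370, 368 and 333 CPM with Dex, against 336, 338 and 332 CPM in control, in cKO cells, and to 414, 389 and 380 CPM with Dex, against 315, 330 and 350 CPM in control, in WT cells. Its cKO groups overlapped and its WT groups did not. Peaks outside the Cradd span had ratios of 1.10 in cKO and 1.47 in WT cells, and those within it 1.06 and 1.14. In bulk libraries, fewer open cells and less opening per cell cannot be told apart.

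Calls were looked at in the genes beside both loci, over all peaks within 300 kb of either span. Arap2, which lies next to Dthd1 and encodes a GTPase-activating protein for Arf, had 0 of 28 tested peaks called for Dex in cKO cells and 3 called higher in WT cells, with median log2 values of 0.09 in cKO and 0.69 in WT cells. One of the 3, chr5:62765524-62766873, had 16.8, 19.3 and 13.4 CPM with Dex, against 13.98, 13.8 and 13.3 CPM in control, in cKO cells. WT cells had 24.3, 26.6 and 21.2 CPM with Dex, against 12.2, 16.3 and 15.9 CPM in control. The cKO groups overlapped and the WT groups did not, with log2 values of 0.27 ± 0.13 in cKO cells (adjusted p = 0.852) and 0.69 ± 0.13 in WT cells. Another 5 tested peaks had no gene within 50 kb, 4 of them past the end of Dthd1 and 1 before Arap2 at 273 kb from the Dthd1 span. Their medians for Dex were −0.13 in cKO and 1.02 in WT cells, with 0 called. Around Cradd, Socs2, Mrpl42, Ube2n, Nudt4 and Plxnc1 had 0 called peaks in either genotype.

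The peaks most like the leading one of each gene were ranked by Pearson r of log2(CPM + 0.5) over the 12 libraries, a description that shares libraries and depth with the peak itself. For the Dthd1 peak at 42.8 kb the 5 nearest genes elsewhere were Nars2 (r = 0.990), Ptpn22 (0.976), Rprd2 (0.974), N4bp1 (0.969) and Dip2b (0.966). For the leading Cradd peak they were Gimap3 (0.985), Neb (0.984), nonagouti (0.980), Mchr1 (0.977) and Cx3cr1 (0.975). The Neb peak averaged 2.68 CPM with Dex and 0.942 CPM in control in cKO cells, and 8.04 and 0.870 CPM in WT cells.

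Other genes of death domain and caspase recruitment signalling were read from 5 lists holding 56 genes, all with a tested peak, 658 peaks in all. The PIDDosome list held 7 genes, the components Pidd1 and Casp2 with Mdm2, Bid, Trp53, Cdkn1a and Ankrd26 beside them. Another list was other death domain adaptors and kinases (16, such as Fadd and Ripk1). The rest were death domain receptors (11), proteins with a caspase recruitment domain (17) and proteins with a death effector domain (5). With Dex, 0 of the 56 genes had a called peak in cKO cells. In WT cells 0 were higher, 1 was lower and 55 had no call, so 0.152% of the list peaks were called, where 0.534% of all tested peaks were, and 0.114% lower. The gene was Fas, the death receptor of activated T cells, at chr19:34299226-34300044, with log2 values of −0.12 ± 0.11 in cKO cells (adjusted p = 0.922) and −0.45 ± 0.11 in WT cells (adjusted p = 0.0305). In the other 3 comparisons 0 of the 56 genes had a call. Over the 45 peaks of the PIDDosome list, the median log2 value with Dex was 0.07 in cKO and 0.0013 in WT cells. Of these peaks, only 4 were of Pidd1 and 3 of Casp2.

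Library totals ran from 12988437 to 25081591 counts. The strongest 10% of tested peaks held 58.1 to 61.6% of the counts in cKO Dex, 57.9 to 60.3% in cKO control, 60.8 to 63.5% in WT Dex and 60.6 to 62% in WT control libraries, so this share moved with the groups. With it as a covariate, 0 peaks were called for Dex in cKO cells and 17 in WT cells, all higher. Nr3c1, which encodes GR, had 24 tested peaks and 0 calls in all 5 comparisons, and a peak outside the deleted part checks nothing about the knockout. The 5 T helper markers and the 5 Th17 markers all had a peak at a gene end, at 11.7 to 36.02 and 2.84 to 20.9 CPM per kb. Markers of other cells had peaks for 2 of 4 CD8 T and NK, 2 of 4 B, 4 of 4 myeloid and 3 of 4 erythroid and stromal genes, while Ms4a1, Pax5, Ncr1, Klrd1 and Gata1 had none. Summed over its genes in each library, the CD8 T and NK list ran from 10.2 to 12.7 CPM per kb in cKO Dex, 10.7 to 13.9 in cKO control, 11.2 to 14.8 in WT Dex and 9.86 to 13 in WT control libraries. The erythroid and stromal list ran from 25.6 to 26.9 in cKO Dex, 23.96 to 26.6 in cKO control, 28.0 to 30.2 in WT Dex and 24.5 to 29.0 in WT control libraries. The B list ran from 24.7 to 27.1 in cKO Dex, 23.3 to 25.6 in cKO control, 24.2 to 26.9 in WT Dex and 25.0 to 28.5 in WT control libraries. The myeloid list ran from 19.7 to 25.4 in cKO Dex, 16.8 to 19.8 in cKO control, 19.0 to 22.2 in WT Dex and 19.6 to 21.9 in WT control libraries. The means of the CD8 T and NK list and of the erythroid and stromal list were highest in WT Dex libraries, where their ranges overlapped those of WT control. The T helper mean was also highest there (112.2, against 106.6 in cKO Dex, 101.3 in cKO control and 109.8 in WT control). The Th17 mean was lowest there (54.3, against 63.9, 57.6 and 55.6 in the same order). The part of these lists in the results was not tested.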

How the data were processed

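The authors deposited raw whole-number counts of 12 ATAC-seq libraries over 222105 shared peaks. Tools listed per the submitters' processing notes include Genrich 0.6.1, featureCounts 2.1.1, Bowtie2 2.3.5 and Trimmomatic 0.39, with build mm10. How they were run, whether reads were shifted for the cut of the transposase and whether libraries were pooled to call peaks is not stated in the labels or notes, and each could change which peaks exist and their counts. Amplification took 16 PCR cycles, and copies are not independent molecules.

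From these counts, edgeR 4.0.16 (R 4.3.3) kept peaks by filterByExpr with 10 as minimum count and 15 as minimum total, scaled by TMM, and ran its robust quasi-likelihood test on all 12 libraries with a coefficient for each group and 8 residual degrees of freedom. Two-sided p-values were adjusted by Benjamini-Hochberg over 202587 peaks. The SE of a log2 value is its size over the square root of F. The steps were tested on simulated data. A RefSeq table of GRCm38.p6 gave gene spans. Chi-square per degree of freedom was 2.05 to 3.69 between replicates, beyond sampling noise. Same-numbered cKO Dex and WT Dex libraries deviated together from their group means (r of 0.125, 0.162 and 0.284). The main fit nevertheless used no pairing for any comparison, and a fit with the replicate number as a block was an alternative. Alternatives were DESeq2 1.42.0, limma-voom (limma 3.58.1), other scalings, no filter, a covariate, fewer libraries and other assignment rules.

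The genes, lists and tests were chosen with earlier results of these data known. Named peaks were the called ones (at most 8 per gene by WT p), the strongest, those within 1 kb of a gene end, and the one with the smallest p in Dex-treated against control cKO cells and in cKO against WT control cells. The last 2 called Dthd1 peaks are named beyond this rule.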

Additional observations from a re-analysis of the deposited data

Results flagged for a closer look

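The Dex response of the Cradd peak chr10:95144382-95145200 differed between genotypes, by 1.95 on the log2 scale as the WT value minus the cKO value. The difference contains the WT comparison from which the gene was chosen.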

How the results depend on the processing

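Dex in cKO cells and genotype in control cells gave 0 called Dthd1 and Cradd peaks under every alternative run. For Dex in WT cells the 15 calls became 7 to 16 with 1 library left out and 10 to 17 otherwise. Over all tested peaks the 1081 calls became 507 to 1435 with 1 library left out and 963 to 2244 in the other refits. The 1 call for the difference between Dex responses became 2 with the covariate, 2 with loess offsets, 2 with total counts, and 0 within the gene spans or within 20 kb, since the leading Cradd peak lies outside both. The 3 calls for genotype in Dex-treated cells became 5 with DESeq2, 5 with the libraries of the contrast only and 7 with limma-voom. They became 8 with loess offsets, 6 with total counts and 2 to 5 with 1 library left out. Over all tested peaks the 345 calls became 494, 413, 495, 1007, 894 and 152 to 454 in the same order. The cause was not tested. Of the 3, DESeq2 called only the strongest Dthd1 peak. Its other calls were Dthd1 62815409, 62865305 and 62892829 and Cradd 95313153. DESeq2 gave no adjusted p for 87 of 96 peaks there, the leading Cradd peak and the Dthd1 peak at 42.8 kb among them.

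The titles repeat the replicate numbers in each group. Over all groups, 9 of 18 same-numbered pairs had r over 0.1 (−0.18 to 0.284), with every pair over it between cKO Dex and WT Dex and at replicate 2, but not in the other comparisons. With the replicate block, 17 peaks were called for Dex in WT, 0 for Dex in cKO, 1 for the difference, 0 for genotype in control and 9 for genotype in Dex-treated cells. Over all tested peaks that fit called 1747, 7, 99, 173 and 1017 in the same order. The main fit called 1081, 6, 56, 21 and 345.

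Of 1563 values of the 16 named peaks under alternatives, 1456 kept their direction and their side of the threshold, 30 lost a call, 29 gained one and 48 changed sign, 36 of them for genotype in control cells. None of the 48 was called before or after, and 4 had started more than 1 SE from 0. A further 21 had no adjusted p from DESeq2.

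With the covariate, the sign-changed log2 values for cKO over WT in control were 0.063 (Cradd 95180173), 0.014 (Dthd1 62790715), 0.17 (62854074), 0.083 (62865305), −0.039 (62867069) and 0.16 (62892829); for cKO over WT with Dex, 0.0040 (Cradd 95323362) and 0.11 (Dthd1 62790715); and for Dex in cKO, −0.016 (Dthd1 62892829). The rest were for cKO over WT in control. With loess offsets they were 0.042 (Cradd 95191900), 0.015 (Cradd 95313153), 0.041 (Dthd1 62854074), 0.064 (62857898), 0.020 (62865305) and 0.087 (62892829). With total counts they were 0.020 (Cradd 95191900), 0.027 (Dthd1 62854074) and 0.022 (62892829). At Dthd1 62815409 they were −0.0062 with DESeq2, −0.0013 with limma-voom and −0.0046 with no filter.

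With 1 library left out, the ranges below span all such fits of each result that changed sign in any of them. The sign-changed values alone were at most 0.23 in size over all alternatives. For cKO over WT in control, Cradd values ran from −0.14 to 0.056 (95180173), −0.11 to 0.036 (95191900) and −0.19 to 0.087 (95313153). Those of Dthd1 ran from −0.022 to 0.67 (62792255), −0.060 to 0.056 (62815409) and −0.058 to 0.35 (62846484). Further Dthd1 ranges were −0.18 to 0.055 (62854074), −0.23 to 0.41 (62867069) and −0.0996 to 0.014 (62892829). The difference ran from −0.076 to 0.074 (Cradd 95298660) and −0.30 to 0.017 (Dthd1 62790715), Dex in WT from −0.14 to 0.070 (Cradd 95323362) and Dex in cKO from −0.056 to 0.36 (Dthd1 62846484). At these depths the SE was widest at weak peaks (0.46 at a mean of 0.917 CPM, Dthd1 62859564, against 0.09 at 70.0 CPM, 62857898).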
